A study of Neurospora crassa with 94 samples.

Results

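The comparison described here set 3 RNA-seq libraries of a Neurospora crassa strain lacking acf, iaf-1 and iaf-2 (the triple mutant) against 3 libraries of a strain lacking acf and iaf-1, so that loss of iaf-2 is the labelled difference. The 6 libraries were chosen by genotype label from 94 samples of the series, of which 41 are RNA-seq libraries, and all 6 carry the same batch number, 4, in their titles. They belong to library series 118 (17 libraries), which also held 3 acf iaf-2, 2 iaf-1 iaf-2, 3 isw and 3 wild-type (WT) libraries. Separate libraries served for further comparisons: the triple mutant against acf in series 112, and iaf-2 against WT in series 111, with 3 libraries in each group. Series 112 also held 3 set-7 and 3 WT libraries, used here to list the genes raised in set-7. They also entered the fit of that series, as the acf and iaf-1 libraries of series 111 entered its fit. All cultures were mycelium kept in constant light. Nothing in the labels says that replicates came from separate cultures or that a genotype was represented by more than 1 isolate, so the p-values measure the spread between these libraries only, which may be technical.

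ISW is the catalytic subunit of the ISWI family of chromatin remodelers, enzymes that use ATP to slide and space nucleosomes. Such ATPases work with accessory subunits, of which ACF1 is the best known, and the genes iaf-1 and iaf-2 are named as ISWI accessory factors. In Neurospora, genes kept silent during vegetative growth include many in domains of histone H3 lysine 27 methylation, which is deposited by the Polycomb repressive complex PRC2 with SET-7 as its catalytic subunit. Neurospora strains are of mating type A or a, set by alternative genes at one locus, and each mating type makes its own pheromone and pheromone receptor.

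The deleted genes were read first. iaf-2 (NCU09388) had 0.374, 0.116 and 0.276 TPM (transcript units corrected for the length of the gene and the size of the library) in the triple mutant, against 14.7, 8.99 and 8.19 TPM in acf iaf-1. The 2 groups did not overlap, and the log2 fold change, on log2(TPM + 1) as for every fold change of series 118 here, was -3.17 ± 0.20 (SE, limma adjusted p = 1.62e-09). iaf-1 (NCU00412) lay at 0.0552 to 0.162 TPM in the triple mutant and at 0.148 to 0.259 TPM in acf iaf-1, near 0 in both. The gene labelled acf (NCU00164, symbol crf4-2) did have reads, at 24.0 to 29.2 TPM in the triple mutant and 23.2 to 28.5 TPM in acf iaf-1, more than the 12.2 to 16.4 TPM of WT. The counts therefore do not check the acf deletion, which both groups are labelled with. isw itself (crf4-1) was higher in the triple mutant, at 47.1 to 53.1 TPM against 27.7 to 37.0 TPM in acf iaf-1 (log2 fold change 0.70 ± 0.14, limma adjusted p = 0.000628), but not in series 112, where the triple mutant had 25.4 to 29.2 TPM and acf 31.0 to 36.6 TPM (log2 fold change -0.19 ± 0.10, edgeR adjusted p = 0.125).

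The 2 strains also differed at the mating-type locus. matA-1, a gene of the A mating type, had 0.23, 0.0949 and 0 TPM in the triple mutant, against 58.5, 43.6 and 40.6 TPM in acf iaf-1. That is 3 reads against 1578 reads over the groups, a ratio of 0.00219 with an exact 95% counting interval of 0.000452 to 0.00642. matA-2 had 1 read against 23 reads and matA-3 had 0 reads against 24 reads, so that matA-3 was at least 6.93-fold lower in the triple mutant when a group total of 3 reads stands in for its 0. matA-1 was also at 0 in every acf iaf-2, iaf-1 iaf-2 and isw library. A difference in mating type and the loss of iaf-2 cannot be told apart in this comparison by itself. In series 112 neither group had matA-1 reads beyond background, with 0 TPM in all 3 triple mutant libraries and at most 0.157 TPM in acf, and results there are given beside those of series 118 for that reason. The triple mutant of series 112 differs from acf by loss of iaf-1 as well as iaf-2. iaf-1 lay at 0.159 to 1.3 TPM in that triple mutant and at 8.83 to 10.7 TPM in acf. Changes in series 112 therefore cannot be assigned to iaf-2 alone. In series 111 matA-1 lay at 0 to 0.155 TPM in iaf-2 and 17.1 to 27.4 TPM in WT, so iaf-2 against WT carries the same mating-type difference as the main comparison.

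The libraries of the triple mutant were not alike at one end of chromosome IV. Of the last 20 annotated genes there, from NCU05170 outwards, 2 reached 1 TPM in replicate 1 and 2 in replicate 2, while 16 did in replicate 3. Together these genes took 51 and 152 reads in replicates 1 and 2, against 12360 reads in replicate 3 and 18659 to 35738 reads in the acf iaf-1 libraries. Their summed level was 5.49, 12.2 and 1110.0 TPM in the triple mutant and 1827, 2135 and 2051 TPM in acf iaf-1. In series 112 it was 944 to 1136 TPM in the triple mutant and 1543 to 1720 TPM in acf, so the near absence was seen in 2 of the 6 triple mutant libraries of the series. Over all genes, replicates 1 and 2 of the triple mutant were also closer to each other than to replicate 3, with a chi-square per degree of freedom of 11.9 between them and of 39.6 and 41.6 with replicate 3.

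**Figure D1:**
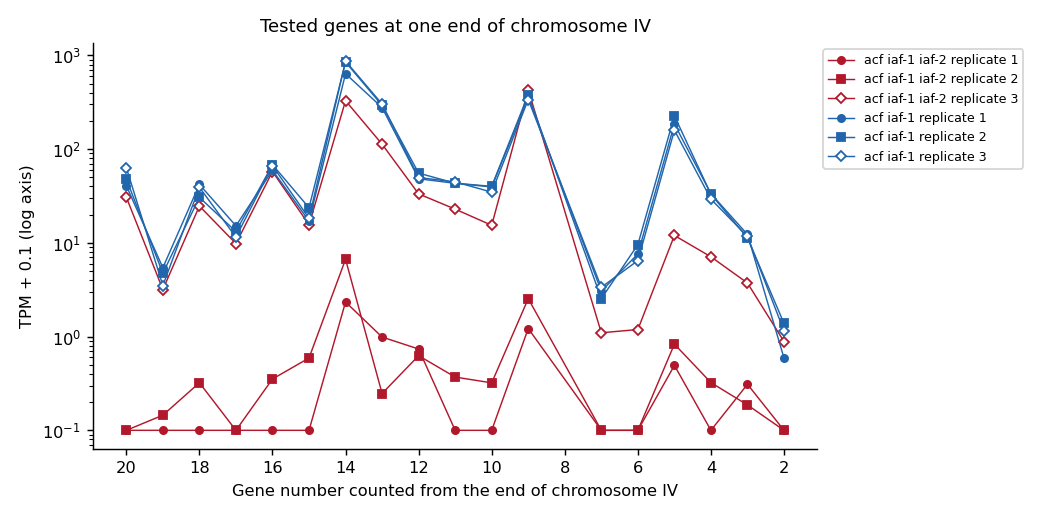
TPM + 0.1 on a log axis of the 18 tested genes at one end of chromosome IV, counted from the end, with 1 line for each triple mutant library (red) and each acf iaf-1 library (blue). Triple mutant replicates 1 and 2 lie near 0 throughout, while replicate 3 runs with the acf iaf-1 libraries or under them, furthest at NCU10040, gene number 5.

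All 18 of these genes that were tested were called lower in the triple mutant, with a median log2 fold change of -3.71 (limma adjusted p under 0.05), but only 13 with edgeR and 4 with DESeq2 on the recovered reads and 3 with the replicate number as a block. With replicate 3 as the only triple mutant library, 9 of the 18 were called lower, with a median of -0.80. In this and every other fit with 1 triple mutant library, that library is assumed to vary like those of the other groups, so its calls have no replicate check of their own. NCU05160 then had a log2 fold change of 0.26 (limma adjusted p = 0.26). The genes of this end named here beyond the leading ones were chosen after their values were seen. NCU10040 was low in every triple mutant library, at 0.393, 0.731 and 11.9 TPM against 185, 227 and 159 TPM in acf iaf-1, and was also lower in the triple mutant of series 112, at 4.30 to 9.89 TPM against 52.9 to 86.4 TPM in acf (log2 fold change -3.17 ± 0.43, edgeR adjusted p = 0.000127). The catalase gene cat-4, in contrast, had 0, 0.045 and 3.08 TPM in the triple mutant and 5.33, 4.64 and 3.40 TPM in acf iaf-1 (log2 fold change -1.73, limma adjusted p = 0.00185). With replicate 3 as the only triple mutant library its log2 fold change was -0.40 (limma adjusted p = 0.256).

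Over the genome, loss of iaf-2 in the acf iaf-1 background went with higher expression more often than with lower expression. Of 9339 genes tested, 2289 (24.5%) were called higher and 1390 (14.9%) lower in the triple mutant (limma, Benjamini-Hochberg adjusted p under 0.05), together 39.4%. The gap was smaller when libraries were scaled to one another. Median-ratio scaling gave 2211 higher and 1781 lower, edgeR on recovered reads 2179 and 1747, and DESeq2 2255 and 1800. The rises were also the larger ones, with 757 genes (8.11%) higher at least 2-fold and 251 genes (2.69%) lower at least 2-fold. All 3 triple mutant libraries lay above all 3 acf iaf-1 libraries for 30.3% of the genes, and below them for 20.1%. With replicate 3 as the only triple mutant library, 1872 genes were called higher and 776 lower, and without that replicate the counts were 1825 and 1300.

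The largest rise was that of mfa-1, the pheromone precursor gene of mating type a. It had 10751, 18368 and 8434 TPM in the triple mutant, against 20.4, 25.0 and 21.8 TPM in acf iaf-1. The groups were far apart, and the log2 fold change was 8.99 ± 0.51 (limma adjusted p = 1.25e-08). The acf iaf-2 libraries had 23.8 to 136 TPM, the iaf-1 iaf-2 libraries 27.9 and 43.1 TPM and WT 17.4 to 31.4 TPM, so mfa-1 was low in every strain of the series that lacked at most a pair of these genes. The isw libraries had 28522 to 35186 TPM. In series 112 mfa-1 had 14352 to 16420.5 TPM in the triple mutant and 9.77 to 17.6 TPM in acf (log2 fold change 10.33 ± 0.43, edgeR adjusted p = 4.83e-09).

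pre-2, which encodes the receptor for the pheromone of the A mating type, followed the same order. It had 384, 406 and 340.1 TPM in the triple mutant and 1.83, 2.90 and 1.87 TPM in acf iaf-1 (log2 fold change 6.90 ± 0.19, limma adjusted p = 1.05e-13). All other groups but isw stayed under 10 TPM, with 6.14 to 8.85 TPM in acf iaf-2, and isw had 248 to 298 TPM. In series 112 pre-2 had 208 to 222 TPM in the triple mutant and 1.59 to 1.89 TPM in acf (log2 fold change 7.08 ± 0.34, edgeR adjusted p = 6.28e-09).

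The A-type counterparts were lower in the triple mutant of series 118. ccg-4, the pheromone precursor gene of mating type A, had 0.396, 0.327 and 0.267 TPM in the triple mutant, against 21.7, 19.4 and 27.3 TPM in acf iaf-1 (log2 fold change -4.15 ± 0.17, limma adjusted p = 7.76e-12). No other group of series 118 had more than 0.345 TPM, and in series 112 it stayed at or under 0.192 TPM in both the triple mutant and acf. In series 111, however, ccg-4 was at 0 TPM in every WT library, where matA-1 lay at 17.1 to 27.4 TPM. High matA-1 thus did not always go with high ccg-4. pre-1, the receptor gene of A strains, had 2.96 to 3.99 TPM in the triple mutant and 6.01 to 6.69 TPM in acf iaf-1 (log2 fold change -0.69 ± 0.17, limma adjusted p = 0.00454). In series 112 pre-1 was instead called higher, at 4.78 to 7.48 TPM in the triple mutant and 3.86 to 4.67 TPM in acf (log2 fold change 0.53 ± 0.19, edgeR adjusted p = 0.0301). Among the 12 genes listed for pheromones, their receptors and the signalling downstream, 4 (33.3%) rose and 3 (25.0%) fell, against 24.5% and 14.9% of all genes. In series 112, 8 of the 11 tested (72.7%) rose and none fell, where 25.0% and 23.2% of all genes did. The remaining calls were small: pp-1, the transcription factor at the end of the pathway, rose by 0.46 ± 0.10 and the G protein gene gna-1 by 0.32 ± 0.12 on the log2 scale, and the transcription factor gene vib-1 fell by 0.31 ± 0.10 (limma adjusted p = 0.00213, 0.0407 and 0.0241 for pp-1, gna-1 and vib-1). The kinase genes mak-2, mek-2 and nrc-1 were not called, with log2 fold changes of 0.16 to 0.23.

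**Figure D2:**
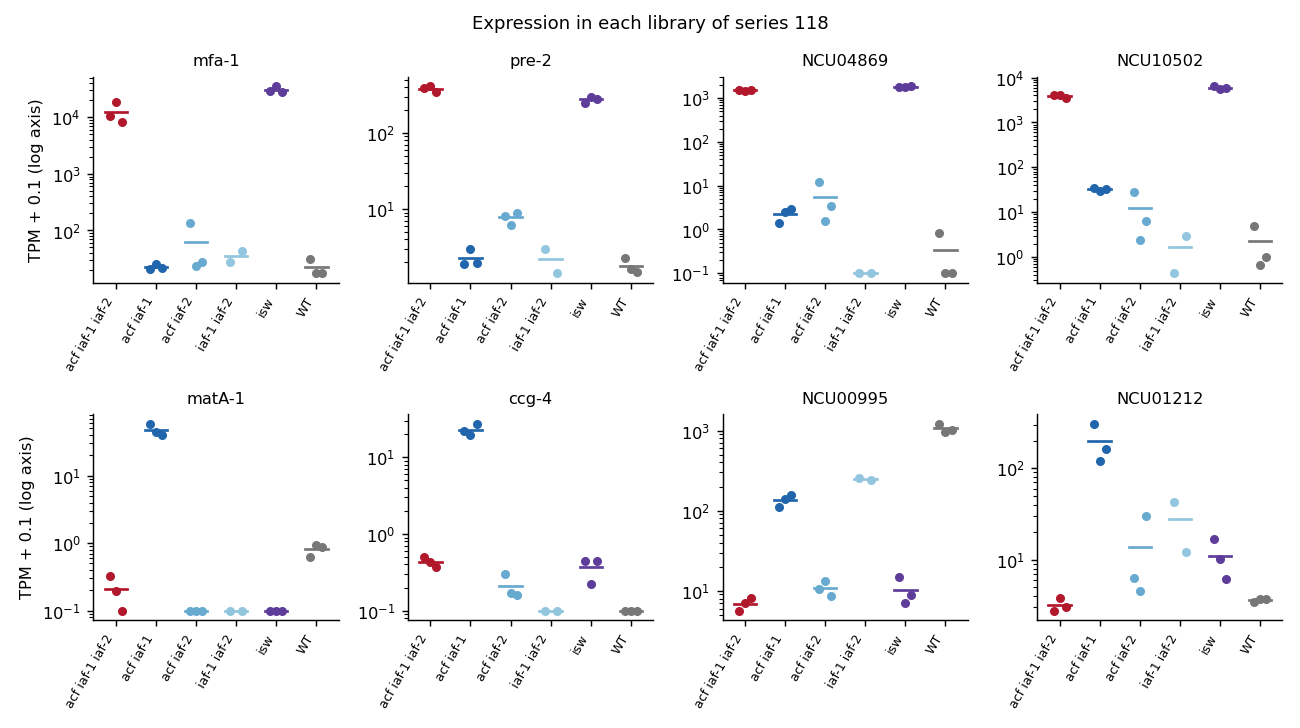
TPM + 0.1 on a log axis for 8 genes in each library of series 118, with 1 point per library and a line at the group mean, the triple mutant at the left and acf iaf-1 beside it. mfa-1, pre-2, NCU04869 and NCU10502 are high in the triple mutant and isw, matA-1 and ccg-4 are high in acf iaf-1, and NCU00995 is highest in WT.

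Several unnamed genes rose almost as far as mfa-1, and each was far lower in all 3 strains that lack 2 of the 3 genes. NCU04869 had 1569, 1446 and 1497 TPM in the triple mutant, against 1.31, 2.43 and 2.82 TPM in acf iaf-1 (log2 fold change 8.91 ± 0.42, limma adjusted p = 1.11e-09). It had at most 11.8 TPM in acf iaf-2 and 0 TPM in both iaf-1 iaf-2 libraries. NCU04867, next but one along chromosome IV by its locus number, had 395 to 426 TPM in the triple mutant and 1.22 to 1.48 TPM in acf iaf-1. NCU10502, on the same chromosome, had 4033, 3999 and 3561 TPM in the triple mutant and 34.2, 29.6 and 32.0 TPM in acf iaf-1, a level above the 0.574 to 4.86 TPM of WT.

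Other members of this leading group lie on chromosome V and elsewhere. NCU01298 had 2181, 2356 and 1238 TPM in the triple mutant and 9.58, 11.6 and 10.7 TPM in acf iaf-1. NCU07201 had 858, 1149 and 833 TPM in the triple mutant and 6.58, 10.9 and 7.31 TPM in acf iaf-1. The consecutively numbered NCU16929 and NCU16930 had 1414 to 1889 TPM and 157 to 233 TPM in the triple mutant, against 30.8 to 41.5 TPM and 2.46 to 4.00 TPM in acf iaf-1. The same step was seen at lower levels for NCU06889 on chromosome VII (101 to 110.5 TPM in the triple mutant and 1.05 to 1.64 TPM in acf iaf-1), NCU04920 on chromosome IV (46.5 to 61.3 TPM in the triple mutant and 0.205 to 0.598 TPM in acf iaf-1) and NCU05467 on chromosome II (31.8 to 39.3 TPM in the triple mutant and 0 to 0.309 TPM in acf iaf-1). The log2 fold changes of these 12 leading genes ran from 4.99 to 8.99, and the isw libraries were high for each of them, from 53.7 TPM for the lowest NCU05467 library upwards.

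All 12 also rose in series 112, where they had log2 fold changes of 3.98 to 12.5 on the scale of counts (edgeR adjusted p at most 7.92e-06). For NCU04869, for example, the triple mutant of that series had 1105 to 1218 TPM and acf 1.19 to 1.78 TPM. In series 111, where iaf-2 alone was deleted, 4 of the 12 had enough reads to be tested and none was called higher. mfa-1 had 7.02 to 8.59 TPM in iaf-2 and 6.67 to 10.2 TPM in WT (log2 fold change -0.11, edgeR adjusted p = 0.847), and NCU01298 was slightly lower in iaf-2, at 10.1 to 12.5 TPM against 14.7 to 19.4 TPM in WT (log2 fold change -0.72, edgeR adjusted p = 0.00696). NCU16929 had 1.17, 2.67 and 4.47 TPM in iaf-2 and 0.451, 0.939 and 0.552 TPM in WT, groups that did not overlap (log2 fold change 1.91 ± 0.77, edgeR adjusted p = 0.102). NCU07201 had 2.66 to 4.53 TPM in iaf-2 and 2.68 to 2.99 TPM in WT (log2 fold change 0.34, edgeR adjusted p = 0.479).

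**Figure D3:**
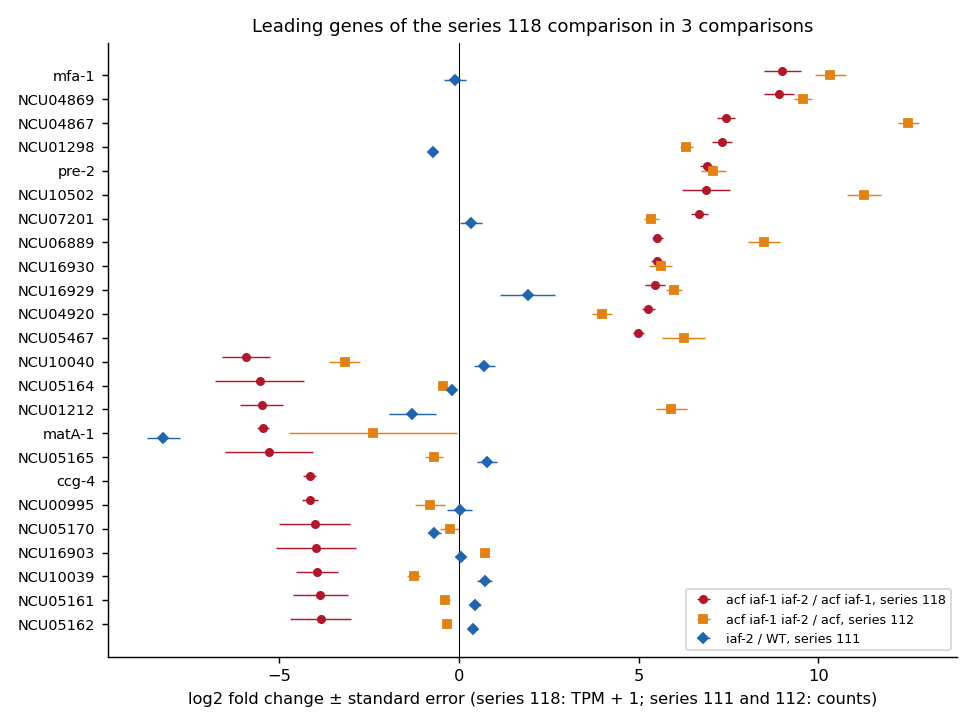
Log2 fold changes with standard errors of the 12 most raised and 12 most lowered genes, in the triple mutant against acf iaf-1 (red circles), in the triple mutant against acf of series 112 (orange squares) and in iaf-2 against WT of series 111 (blue diamonds). The raised genes lie to the right in both triple mutant comparisons and 4 of them were tested in iaf-2 against WT, with values from -0.72 to 1.91 and no call of a rise, while the lowered genes mostly lie near 0 in series 112.

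The 757 genes raised at least 2-fold in series 118 behaved likewise as a set. Of the 630 tested in series 112, 479 (76.0%) were called higher there and 35 (5.56%) lower, with a median log2 fold change of 1.97, where 48.2% of all genes tested were called, 25.0% higher and 23.2% lower. Of the 302 tested in iaf-2 against WT, 30 (9.93%) were called higher and 34 (11.3%) lower, where 19.6% of all genes tested were called, 10.1% higher and 9.48% lower. The 2 effects of losing iaf-2, in the acf iaf-1 background and in an otherwise wild-type strain, were compared by the difference of the log2 fold changes in one fit. It was called for 2847 of 9432 genes (30.2%), 1505 (16.0%) more positive in the acf iaf-1 background and 1342 (14.2%) more negative. Background strain, mating type and library series cannot be told apart in that test, since matA-1 was low in the iaf-2-deleted strain of both comparisons. For mfa-1 the difference was 9.0 and for pre-2 it was 7.18. The calls of series 111 rest on pairs of libraries that differed little more than by counting noise (chi-square per degree of freedom of 1.63 between iaf-2 replicates 1 and 2 and of 1.93 between WT replicates 1 and 3). The acf and iaf-1 groups of that series, which share the fit, also held a close pair each (1.80 and 1.53). With every such pair summed, in these groups too, 4 genes were called in iaf-2 against WT, all lower: iaf-2, matA-1, NCU14009 and NCU16306. The difference was then called for 2168 genes.

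The genes that rose at least 2-fold were for the most part also high in isw. Genes called higher at least 2-fold in isw against WT numbered 1338 (14.3% of those tested), and none of those libraries is among the 6 compared here. Of these isw-raised genes, 906 (67.7%) were called higher in the triple mutant than in acf iaf-1 and 63 (4.71%) lower, with a median log2 fold change of 0.95, while the median over all genes tested was 0.07. Read from the other side, 631 of the 757 genes raised at least 2-fold in the triple mutant (83.4%) were isw-raised, which is 47.2% of the isw-raised genes. Their median level was 11.9 to 12.7 TPM in the triple mutant libraries, against 4.94 to 5.25 TPM in acf iaf-1. It was 4.79 to 5.46 TPM in acf iaf-2, 2.89 and 3.42 TPM in iaf-1 iaf-2, 11.7 to 12.3 TPM in isw and 0.646 to 0.705 TPM in WT, the last 2 being the libraries that chose the genes. Because the WT libraries helped choose the genes, their level is low by that choice and gives no independent baseline for acf iaf-1. By this median, the isw-raised genes were higher in each triple mutant library than in every acf iaf-1 library. With replicate 3 as the only triple mutant library 772 of them were called higher and 39 lower.

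Many genes that are low in isw fell. Of 458 genes (4.9% of those tested) called lower at least 2-fold in isw against WT, 260 (56.8%) were called lower in the triple mutant than in acf iaf-1 and 13 (2.84%) higher, with a median log2 fold change of -0.57. Their median level was 16.9 to 17.8 TPM in the triple mutant and 26.5 to 28.6 TPM in acf iaf-1, with 30.6 to 32.8 TPM in acf iaf-2 and 34.0 to 35.0 TPM in iaf-1 iaf-2. Across all 9339 genes tested, the log2 fold changes of the triple mutant against acf iaf-1 and of isw against WT had a Pearson r of 0.67 and a Spearman rho of 0.57. These are correlations across genes of 1 fit with no library in common, and genes are not independent replicates. The same fold changes had a Pearson r of 0.60 with those of series 112 (8719 genes) and of 0.06 with those of iaf-2 against WT (7959 genes).

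**Figure D4:**
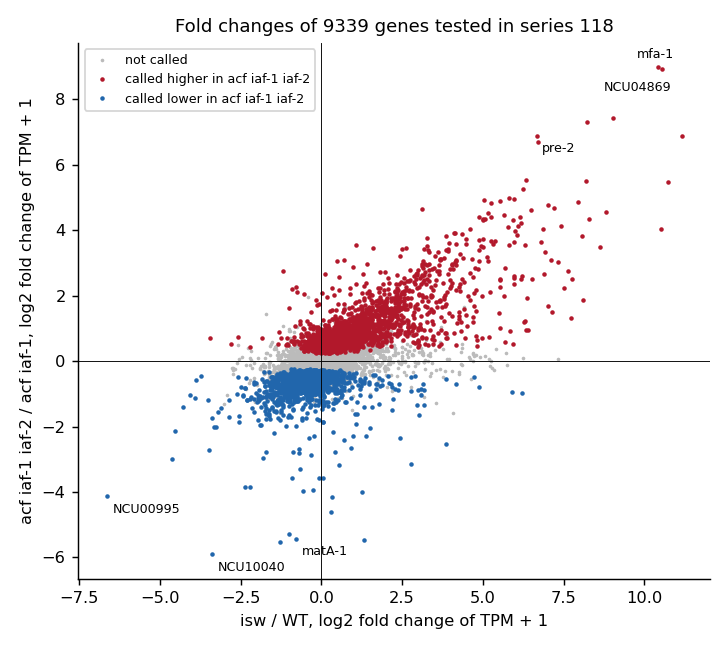
Log2 fold change of the triple mutant against acf iaf-1 (vertical) and of isw against WT (horizontal) for the 9339 genes tested in series 118, each point 1 gene, coloured by the call in the vertical comparison. Most genes called higher lie to the right of 0 and the leading genes lie far up and to the right, while matA-1 lies low and near 0 on the horizontal axis.

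Genes raised by loss of set-7 were called in both directions. The set-7 libraries of series 112 had 263 genes (3.01% of those tested) raised over WT by a factor of 2 or more, of which 255 were tested here, and 88 (34.5%) were called higher and 60 (23.5%) lower, against 24.5% and 14.9% of all genes, with a median log2 fold change of 0.09. Their median level was 13.4 to 15.0 TPM in the triple mutant and 11.5 to 11.6 TPM in acf iaf-1, well above the 2.25 to 2.66 TPM of WT in both. The genes called lower include NCU05170, NCU10070, NCU16905, NCU10039, NCU10038 and NCU16906 of the chromosome IV end, where triple mutant replicates 1 and 2 lie near 0. Of the 6 listed Polycomb genes, 2 (33.3%, against 24.5% of all genes) rose, and neither of these was called in series 112 (edgeR adjusted p of 0.0702 for NCU05300 and 0.225 for set-7). NCU05300 had 7.47, 9.41 and 10.1 TPM in the triple mutant and 2.73, 3.19 and 3.66 TPM in acf iaf-1 (log2 fold change 1.25 ± 0.15, limma adjusted p = 8.02e-06). set-7 had 8.81 to 9.86 TPM in the triple mutant and 5.73 to 7.47 TPM in acf iaf-1 (log2 fold change 0.48 ± 0.16, limma adjusted p = 0.0278), a call that was lost without acf iaf-1 replicate 2 or 3, without triple mutant replicate 2 or 3, and with the replicate number as a block (limma adjusted p of 0.0821, 0.0968, 0.0577, 0.0826 and 0.0617). Among 7 histone genes 3 (42.9%, against 24.5%) rose, led by the histone H3 gene hH3 at 3688 to 4408 TPM in the triple mutant and 2472 to 2814 TPM in acf iaf-1 (log2 fold change 0.59 ± 0.09, limma adjusted p = 0.000104), where reads of near-identical histone copies are uncertain. In series 112, 1 of the 7 rose and 2 fell, hH3 was not called (log2 fold change 0.26, edgeR adjusted p = 0.0658), and hH2B, called higher in series 118, was called lower (log2 fold change -0.36, edgeR adjusted p = 0.0254). Among 9 genes of heterochromatin and DNA methylation 2 (22.2%) rose and among 9 other remodeler genes 3 (33.3%) rose, against 24.5% of all genes. Each of these rises was less than 1 on the log2 scale.

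Of 14 sexual development genes tested, 4 (28.6%) rose and 2 (14.3%) fell, shares near the 24.5% and 14.9% of all genes. per-1, a gene needed for normally pigmented perithecia, had 24.5, 25.7 and 19.7 TPM in the triple mutant and 0.421, 0.815 and 0.904 TPM in acf iaf-1 (log2 fold change 3.83 ± 0.16, limma adjusted p = 1.53e-11). sms-2, which encodes the Argonaute protein of meiotic silencing, had 5.54 to 6.52 TPM in the triple mutant and 0.546 to 0.781 TPM in acf iaf-1. asd-1, a gene needed for ascospore formation, fell, with 248 to 319 TPM in the triple mutant and 676 to 778 TPM in acf iaf-1 (log2 fold change -1.34 ± 0.27, limma adjusted p = 0.00124). In series 112, 8 of the 14 (57.1%, against 25.0% of all genes) rose and none fell, per-1 among them at 24.9 to 39.4 TPM in the triple mutant and 0.323 to 0.482 TPM in acf.

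Of 12 genes of conidiation, the formation of asexual spores, 5 (41.7%) rose and 1 (8.33%) fell, against 24.5% and 14.9% of all genes. In series 112, 3 of the 12 (25.0%, the share over all genes) rose and none fell. con-6 had 28.5, 37.1 and 23.7 TPM in the triple mutant and 2.96, 2.67 and 1.91 TPM in acf iaf-1 (log2 fold change 3.12 ± 0.20, limma adjusted p = 2.73e-09). eas, the hydrophobin that coats the spores, varied widely in the triple mutant, at 122, 553 and 229 TPM against 23.4, 33.6 and 22.4 TPM in acf iaf-1 (log2 fold change 3.21 ± 0.69, limma adjusted p = 0.00267), and was as high in acf iaf-2, at 88.6 to 429.9 TPM. fl, the regulator that starts conidiation, had 28 to 42.3 TPM in the triple mutant and 15.1 to 23.1 TPM in acf iaf-1. In series 112, con-6 was again called higher (log2 fold change 1.66 ± 0.32, edgeR adjusted p = 0.00059) while eas and fl were not (log2 fold changes 0.60 and 0.05, edgeR adjusted p = 0.649 and 0.877). Spore and aerial tissue in the cultures could not be read apart from expression per cell in bulk RNA, and its part in these results was not tested.

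Some groups of metabolic genes had many members that fell, mostly by small steps. Of 29 subunits of respiratory complex I, which passes electrons from NADH into the respiratory chain, 16 (55.2%) fell and none rose, with a median log2 fold change of -0.33, where 14.9% of all genes fell and 24.5% rose. nuo14.8 had 342, 319 and 253 TPM in the triple mutant and 643, 686 and 565 TPM in acf iaf-1 (log2 fold change -1.06 ± 0.14, limma adjusted p = 2.03e-05), and nuo10.6 had 212 to 225 TPM in the triple mutant and 419.9 to 449 TPM in acf iaf-1. In series 112, 18 of the 29 (62.1%, against 23.2% of all genes) fell and none rose. In iaf-2 against WT none of the 29 was called.

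Of 63 genes of amino acid synthesis, 33 (52.4%) fell and none rose, with a median log2 fold change of -0.51, again against 14.9% and 24.5% of all genes. thr-5 had 35.9, 35.6 and 35.1 TPM in the triple mutant and 115, 123 and 130.3 TPM in acf iaf-1 (log2 fold change -1.76 ± 0.12, limma adjusted p = 9.46e-09). arg-12, which encodes ornithine carbamoyltransferase of arginine synthesis, had 90.3 to 112 TPM in the triple mutant and 191 to 297 TPM in acf iaf-1. In series 112 the list had 23 genes lower (36.5%) and 3 higher (4.76%), against 23.2% and 25.0% of all genes. With replicate 3 as the only triple mutant library, the median log2 fold change was -0.31 for the complex I genes and -0.48 for the amino acid genes. It was 0.15 for all genes tested. Of 10 nitrogen metabolism genes 4 (40.0%, against 14.9% of all genes) fell and none rose, among them nit-3, the nitrate reductase gene (93.3 to 164 TPM in the triple mutant and 268 to 274 TPM in acf iaf-1), a count that dropped to 2 without triple mutant replicate 3. Of 14 vacuolar ATPase subunits 4 (28.6%, against 14.9%) fell and none rose, a count that was 2 without triple mutant replicate 1 or 2 or without acf iaf-1 replicate 1 or 2.

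Many peroxisome and DNA repair genes rose. Of 20 peroxisome biogenesis genes, 14 (70.0%) rose and 1 fell, with a median log2 fold change of 0.39, where 24.5% of all genes rose and 14.9% fell. Their summed level was 950.4 to 1216.7 TPM in the triple mutant and 804.0 to 865.7 TPM in acf iaf-1. The acf iaf-2, iaf-1 iaf-2, isw and WT libraries had 944.5 to 1129.0 TPM, so acf iaf-1 was the low group by this sum. Their median level was 43.6 to 53.6 TPM in the triple mutant, 34.0 to 37.8 TPM in acf iaf-1 and 37.0 to 43.5 TPM in those other groups. pex8 had 55.4, 54.0 and 56.0 TPM in the triple mutant and 26.9, 27.2 and 27.1 TPM in acf iaf-1 (log2 fold change 1.00 ± 0.10, limma adjusted p = 1.25e-06) and was called higher in series 112 too (log2 fold change 1.06 ± 0.11, edgeR adjusted p = 2.95e-06). The count for the list was 9 without triple mutant replicate 2, 8 without triple mutant replicate 3 or without acf iaf-1 replicate 2, and 7 with the replicate number as a block, and in series 112 it was 6 of 20 (30.0%, against 25.0% of all genes). Of 34 DNA repair genes, 17 (50.0%, against 24.5%) rose and 2 (5.88%, against 14.9%) fell, with a median of 0.40. Among them uvs-6, a homologue of yeast RAD50, had 11.6 to 16.7 TPM in the triple mutant and 6.30 to 7.91 TPM in acf iaf-1. In series 112 the DNA repair list had 4 genes higher (11.8%) and 6 lower (17.6%), against 25.0% and 23.2% of all genes. Of 53 kinase genes 16 (30.2%) rose and 4 fell, of 30 proteasome genes 8 (26.7%) rose and none fell, and of 75 glycoside hydrolases 18 (24.0%) rose and 8 fell, against 24.5% higher among all genes. The proteasome count was 3 without triple mutant replicate 2 and 4 without triple mutant replicate 3 or without acf iaf-1 replicate 2. Smaller lists are set against the same shares of all genes, 24.5% higher and 14.9% lower. Of 7 phosphate genes 2 (28.6%) rose and 1 (14.3%) fell, and of 13 stress genes 2 (15.4%) rose and 2 (15.4%) fell. Of 5 heterokaryon incompatibility genes 2 (40.0%) rose, of 11 cellulose response genes 1 (9.09%) rose, and of 7 ribosomal protein genes 1 (14.3%) fell.

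**Figure D5:**
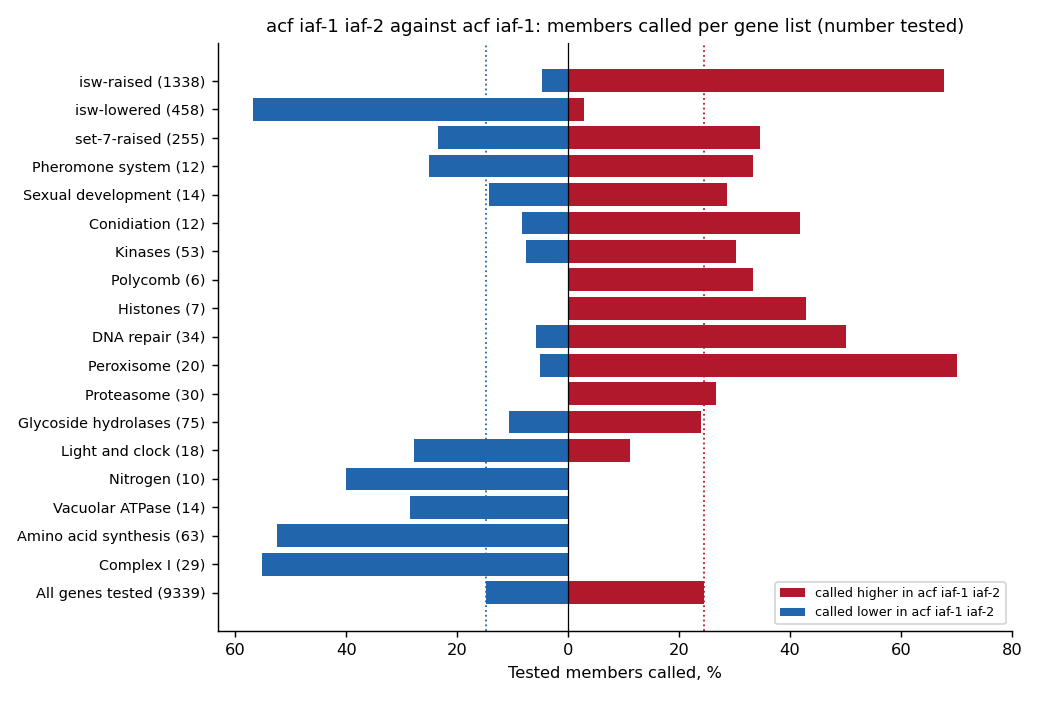
Percent of tested members of each gene list called higher (red, to the right) or lower (blue, to the left) in the triple mutant against acf iaf-1, with the number tested in brackets and dotted lines at the shares over all genes tested, 24.5% and 14.9%. Peroxisome and isw-raised genes reach furthest right, and isw-lowered, complex I and amino acid synthesis genes furthest left.

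Of 18 genes of light response and clock, 5 (27.8%) fell and 2 (11.1%) rose, against 14.9% and 24.5% of all genes, with 3 falling without acf iaf-1 replicate 1 and 4 rising without triple mutant replicate 3. In series 112, 9 of the 18 (50.0%, against 23.2%) fell and 1 rose. The cryptochrome gene cry had 14.1, 16.6 and 17.2 TPM in the triple mutant and 87.0, 55.2 and 58.1 TPM in acf iaf-1 (log2 fold change -1.97 ± 0.14, limma adjusted p = 1.38e-08). al-1, the phytoene desaturase gene of carotenoid synthesis, had 9.84 to 12.6 TPM in the triple mutant and 25.1 to 36.3 TPM in acf iaf-1, and the photoreceptor gene vvd 99.7 to 141 TPM in the triple mutant and 152 to 301 TPM in acf iaf-1. All 3 were also called lower in series 112 (log2 fold changes of -1.71, -0.88 and -1.37 with edgeR adjusted p of 4.63e-08, 0.0236 and 0.00204). The call of vvd in series 118 was lost without acf iaf-1 replicate 1 (log2 fold change -0.61, limma adjusted p = 0.0645).

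Apart from the chromosome IV end, the most lowered genes were often high in acf iaf-1 above WT. Of the 12 named lowered genes 8 belong to that end. NCU01212 had 2.67, 3.73 and 2.95 TPM in the triple mutant and 307, 119.7 and 164 TPM in acf iaf-1, where WT had 3.33 to 3.61 TPM (log2 fold change -5.48 ± 0.60, limma adjusted p = 9.98e-06). Its neighbour by locus number, sod-2, the mitochondrial manganese superoxide dismutase gene, had 93.7, 107 and 80.8 TPM in the triple mutant and 599, 421 and 445 TPM in acf iaf-1, with 104 to 157 TPM in WT (log2 fold change -2.36 ± 0.27, limma adjusted p = 6.55e-06). In series 112 both rose in the triple mutant. There NCU01212 had 887 to 1163 TPM in the triple mutant and 18.0 to 20.6 TPM in acf (log2 fold change 5.91 ± 0.44, edgeR adjusted p = 1.36e-06), and sod-2 had 793 to 1201 TPM in the triple mutant and 163 to 207 TPM in acf (log2 fold change 2.55 ± 0.21, edgeR adjusted p = 5.9e-07). NCU05980, named after its values were seen, shared the pattern of matA-1 and ccg-4, with 0 to 0.332 TPM in the triple mutant, 12.0 to 14.2 TPM in acf iaf-1 and at most 0.157 TPM in every other library of series 118.

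NCU00995 was graded across the strains. It had 5.55, 6.87 and 8.06 TPM in the triple mutant and 111, 142 and 158 TPM in acf iaf-1 (log2 fold change -4.14 ± 0.22, limma adjusted p = 2.75e-10), with 8.55 to 13.3 TPM in acf iaf-2, 238 and 253 TPM in iaf-1 iaf-2, 6.89 to 14.8 TPM in isw and 975 to 1216 TPM in WT. The acf iaf-2, isw and triple mutant libraries were close to one another in this order. In series 112 it was not called (32.8 to 80.8 TPM in the triple mutant and 74.8 to 117 TPM in acf, log2 fold change -0.80 ± 0.41, edgeR adjusted p = 0.13). Of the 242 tested genes among the 251 lowered at least 2-fold, 115 (47.5%) were called lower and 39 (16.1%) higher in series 112, where 23.2% and 25.0% of all genes were.

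Raised genes lay beside one another along the chromosomes. Of 755 genes raised at least 2-fold and placed on a chromosome, 305 (40.4%) had an adjacent gene raised at least 2-fold, against 848 of 8551 other tested genes (9.92%). The longest unbroken run held 13 genes, from NCU07636 to NCU07648 on chromosome IV. For lowered genes outside the chromosome IV end, 52 of 234 (22.2%) had a lowered neighbour, against 350 of 9072 other tested genes (3.86%), and the longest run held 3 genes, from matA-1 to NCU01957. Chromosome VII had the highest share of genes called higher (29.5% of 1002 tested) and chromosome I the lowest (20.8% of 2254). Among the 50 genes at each chromosome end, 124 of 618 tested (20.1%) were called higher and 131 (21.2%) lower, against 24.5% and 14.9% of all genes. With replicate 3 as the only triple mutant library, the median log2 fold change of these end genes was 0.08, where that of all genes tested was 0.15.

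Around the deleted iaf-2 gene on chromosome I, 5 of 19 tested genes among the 10 neighbours on each side were called higher (26.3%) and 5 lower (26.3%), against 24.5% and 14.9% of all genes. The 5 lower calls became 1 without triple mutant replicate 1, 2 without triple mutant replicate 2 or acf iaf-1 replicate 1, and 3 with the replicate number as a block. With replicate 3 as the only triple mutant library, 2 were called higher and 1 lower. Within 5 genes of it, NCU02761 had 72.5, 82.0 and 105 TPM in the triple mutant and 48.9, 55.6 and 51.8 TPM in acf iaf-1 (log2 fold change 0.71 ± 0.15, limma adjusted p = 0.00136), and the 5 other called neighbours in that span (NCU02758, NCU16375 and smco-1 higher, NCU09384 and NCU09382 lower) had log2 fold changes from -0.60 to 0.51. fmf-1, listed next to iaf-2, was at 0 in 16 of the 17 libraries.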

How the data were processed

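Stranded mRNA libraries were made from RNA extracted with Trizol and lithium chloride, per the labels' protocols. Reads were handled with HISAT2 2.1.0, featureCounts (Subread 1.6.2), SAMtools 1.9, cutadapt 1.14, Trim Galore 0.4.4 and FastQC, per the submitters' processing notes. No source used here gives the build, annotation or strand setting, so no coordinates are printed, and overlapping genes on opposite strands are uncertain. The authors deposited TPM for series 118 and whole-number counts for series 111 and 112, per the file headers and values. TPM were whole multiples of a step per gene, and reads came out whole within 0.05 for all 10087 genes with a value (100%); library totals were 11711993 to 21973653 reads in series 118, 9153034 to 19722719 in the series 112 groups used and 6434986 to 9021398 in the series 111 groups used. Counts were converted to TPM, with the gene lengths the TPM table implies, for the levels given for series 111 and 112. The other 53 samples were not analysed here.

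Series 118 was tested with limma 3.58.1 (trend, robust) on log2(TPM + 1), which understates changes of low genes, over all 17 libraries, for genes that reached 1 TPM in 2 or more of them. Series 111 and 112 were tested with edgeR 4.0.16 (quasi-likelihood, TMM, filterByExpr), each over all libraries of its series. Calls used Benjamini-Hochberg adjusted p under 0.05. The difference of iaf-2 effects was a limma contrast over series 111 and 118. Named genes were the deleted, mating-type and pheromone genes, the 12 highest and 12 lowest called genes changed at least 2-fold, with at least 5 TPM in the higher group and no overlap between libraries, up to 4 called members of each list and called genes within 5 of iaf-2. Members, lists and rules were chosen with earlier results of these data known. Of 10397 identifiers 10363 matched the RefSeq table of NC12, used for names and gene order. Fits were tested on simulated data: of 100 genes changed 2-fold among 9210, the main comparison recovered 100% and called 16 unchanged genes; for the difference of iaf-2 effects (9275 genes) 67% were recovered and 4 unchanged genes called. The changed genes were drawn only from genes with ample reads, and every gene had the same simulated spread. Recovery of low or variable genes was therefore not tested. Counting intervals and floors (3 reads) cover counting error only.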

Additional observations from a re-analysis of the deposited data

Results flagged for a closer look

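The change that went with loss of iaf-2 differed for 2847 genes between the acf iaf-1 background and an otherwise wild-type strain. The first is the triple mutant against acf iaf-1 in series 118, the second iaf-2 against WT in series 111. The difference itself was tested in 1 limma fit. The backgrounds were sequenced in different library series, so strain background and series cannot be told apart. Both comparisons also carry the mating-type difference at matA-1, so mating type is confounded with that test. Among the leading raised genes the difference of log2 fold changes was 9.0 for mfa-1, 9.09 for NCU04869, 7.95 for NCU01298, 7.32 for NCU04867, 7.18 for pre-2, 6.87 for NCU10502 and 6.41 for NCU07201. It was 5.52 for NCU06889, 5.49 for NCU04920, 5.37 for NCU16930, 4.99 for NCU05467 and 4.36 for NCU16929. Most of these genes had too few reads to be tested in iaf-2 against WT by itself. NCU10502, NCU06889 and NCU05467 were at 0 TPM in every iaf-2 and WT library of series 111. Their difference is therefore the series 118 fold change alone.

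Among the leading lowered genes the difference was -4.80 for NCU01212, -4.42 for NCU00995 and -4.15 for ccg-4. ccg-4 was at 0 TPM in every iaf-2 and WT library of series 111, so its value is the series 118 fold change alone. For matA-1, low in the iaf-2-deleted strain of both comparisons, the difference was -0.91. For genes of the chromosome IV end it was -6.79 for NCU10040, -6.19 for NCU05165, -5.40 for NCU05164, -4.72 for NCU10039, -4.35 for NCU05161, -4.27 for NCU05162, -4.09 for NCU16903 and -3.39 for NCU05170, where triple mutant replicates 1 and 2 lie near 0 and replicate 3 does not.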

How the results depend on the processing

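For the triple mutant against acf iaf-1, the numbers of genes called higher and lower stayed within 1.5 times of 2289 and 1390 under the other pseudocounts, no filter, median-ratio scaling (2211 and 1781), edgeR (2179 and 1747) and DESeq2 (2255 and 1800) on recovered reads and a fit of the 2 groups alone. Leaving out 1 library gave 1825 to 2234 higher and 1054 to 1300 lower. With triple mutant replicate 1 as the only library of its group the counts were 1715 in all, 1056 higher and 659 lower, and with replicate 3 (added after seeing the data) 776 were lower; 169 isw-lowered genes were called lower with replicate 1 alone. A pseudocount of 5 left 365 genes higher at least 2-fold. In iaf-2 against WT, 792 genes were called (349 higher, 443 lower) from the 2 groups alone, 174 (88 and 86) with the block, 4 (0 and 4) with close pairs summed, and 769 to 2759 without 1 library (357 to 1472 higher, 366 to 1287 lower). The log2 fold change of NCU05160 was 0.26 with replicate 3 alone. The causes were not tested. Replicate numbers did not pair the samples: same-numbered libraries of the main comparison had correlations of -0.101, 0.143 and -0.00416. With the replicate block 3229 genes were called (1961 higher and 1268 lower), 4690 in series 112 and 2062 for the difference of iaf-2 effects. Of 122 named called genes, 87 kept call and direction in every setting other than those with 1 triple mutant library. Depth limits the mating-type genes matA-2 and matA-3, with at most 24 reads in a group.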

Other observations

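NCU09968 and NCU09969 on chromosome VI, named after their values were seen, were at or near 0 in every library of series 118 labelled as lacking acf. NCU09968 was at 0 TPM in the triple mutant and in acf iaf-2 and at 0 to 0.109 TPM in acf iaf-1, with 9.32 and 17.9 TPM in iaf-1 iaf-2, 13.7 to 13.9 TPM in isw and 27.1 to 29.2 TPM in WT. NCU09969 was at 0 TPM in the triple mutant, acf iaf-1 and acf iaf-2, with 0.713 and 1.33 TPM in iaf-1 iaf-2, 2.48 to 2.97 TPM in isw and 5.84 to 6.41 TPM in WT.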
